A study of Mus musculus with 4 samples.

Results

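The genes described here were 10 ligands and receptors of the VEGF and angiopoietin systems, matched by symbol in the UMI count tables of 4 single-cell libraries from subcutaneous Lewis lung carcinoma (LLC) tumors. They were 10 of the 18605 genes that all 4 tables listed. The ligands were Vegfa (ENSMUSG00000023951), Vegfb (ENSMUSG00000024962), Vegfc (ENSMUSG00000031520), Pgf (ENSMUSG00000004791) and Angpt2 (ENSMUSG00000031465). The receptors were Kdr (ENSMUSG00000062960), Flt1 (ENSMUSG00000029648), Nrp1 (ENSMUSG00000025810), Tek (ENSMUSG00000006386) and Tie1 (ENSMUSG00000033191). LLC is an established mouse lung carcinoma line, grown here in C57BL/6N mice of 6 to 8 weeks. Tumors of about 100 mm3 were given 3 fractions of 8 Gy, 24 Gy in all, on days 7 to 9, or were mock treated, and all were taken at 72 h. The untreated group (NT) was 1 library pooled from 3 mock-treated tumors, whereas the radiotherapy group (RT) had 1 library from each of 3 tumors (RT1 to RT3). No agent or allele other than the radiation distinguished the groups.

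VEGF-A, made by hypoxic tumor cells and by macrophages, drives the growth and permeability of vessels through KDR (VEGFR2) on endothelial cells, while FLT1 (VEGFR1) binds the same ligand with high affinity and weak signaling, and neuropilin-1 serves as a co-receptor. VEGF-B and placental growth factor bind FLT1, and VEGF-C binds FLT4 and, once processed, KDR. Angiopoietin-2 is stored and released by endothelial cells and acts on TEK (Tie2), mostly as an antagonist, and TIE1 is the partner receptor of TEK.

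The tables held 10141, 15346, 14994 and 15324 barcodes and 69667759, 78585759, 108699844 and 85660188 UMIs for NT, RT1, RT2 and RT3. After filtering, 9976, 15029, 14993 and 15060 cells were kept, with medians of 5709, 3865, 5200 and 4158 UMIs. The RT2 table stood apart from the others before any comparison: it listed genes by symbol only and held no barcode above 11.95% mitochondrial UMIs. Between 175 and 274 barcodes were shared by each pair of libraries. Because NT was 1 library, no test between NT and RT could be made, every RT ratio below shares that library, and differences between mice within the NT pool are not seen. A level is the UMIs of a gene per 1000000 UMIs (CPM), summed over the cells of 1 population in 1 library. Levels are compared within a gene only, since 3′ counts do not give levels per length. Each change is given as the log2 ratio of an RT library over NT, and intervals are exact 95% Poisson intervals that cover counting error only. Where 3 RT values follow a value of NT, they are in the order RT1, RT2, RT3. A gene was called by size only if its log2 ratio was at least 1 in the same direction in all 3 RT libraries.

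Cells were grouped by marker genes, without using the 10 genes, into tumor-like, macrophage-like, monocyte-like, dendritic-like, neutrophil-like, lymphocyte-like, fibroblast-like and endothelial-like cells, named without "-like" from here on. Tumor cells made up 8087, 9205, 8607 and 10526 cells in NT, RT1, RT2 and RT3. Macrophages numbered 701, 2632, 2550 and 1487, and monocytes 578, 2017, 2213 and 1985. Endothelial cells, on which most of the receptors lie, were few: 33 of 9976 in NT (0.331%, exact Clopper-Pearson interval 0.228 to 0.464), 102 in RT1 (0.679%), 142 in RT2 (0.947%) and 35 in RT3 (0.232%). The RT shares of endothelial cells therefore lay on both sides of NT. All 11 endothelial markers were detected in them, with summed levels of 7783, 8199, 8891 and 8803 CPM in NT, RT1, RT2 and RT3, and Plvap, of the diaphragm of fenestrated vessels, was the most abundant. Tumor markers, led by Rhox5, summed to 35.2 CPM in the endothelial cells of NT and to 394, 281 and 601 CPM in those of RT, with 4 of the 8 at 0 throughout (Prl2c2, Prl2c3, Cdkn2a and Msln). Another cluster of 884 cells carried markers of several classes and stayed unnamed.

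Promoter sequences of the genes whose levels carry the main contrasts, the ligand Vegfa against the 4 receptors Kdr, Flt1, Tek and Tie1 that endothelial cells hold, are shown. They are the 250 bases before the RefSeq transcription start in build GRCm38.p6, each read 5′ to 3′ on the gene's strand, and 9 of the 10 genes had an entry. In Vegfa (chr17:46032378-46032627, minus strand), capitals mark the GC box letters GGGCGG, or CCGCCC where they lie on the other strand.
Vegfa: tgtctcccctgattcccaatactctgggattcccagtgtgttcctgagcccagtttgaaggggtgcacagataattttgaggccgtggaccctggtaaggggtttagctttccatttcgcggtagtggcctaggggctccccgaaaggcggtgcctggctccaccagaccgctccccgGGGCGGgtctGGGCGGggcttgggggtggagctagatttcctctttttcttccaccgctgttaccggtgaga
These letters occurred at 2 places, starting 72 and 62 bases before the start, as well as at 2 places in Kdr and 3 in Flt1 and at none in Tek and Tie1, and 32.7% of the 32851 promoters of the table held at least 1. The hypoxia-response core ACGTG or CACGT, held by 16.6% of all promoters, had no match in this window and 1 match in the window of the other Vegfa start listed. In the receptors, capitals mark the ETS core letters GGAA, or TTCC on the other strand. ETS factors are transcription factors known to act on many endothelial genes.
Kdr: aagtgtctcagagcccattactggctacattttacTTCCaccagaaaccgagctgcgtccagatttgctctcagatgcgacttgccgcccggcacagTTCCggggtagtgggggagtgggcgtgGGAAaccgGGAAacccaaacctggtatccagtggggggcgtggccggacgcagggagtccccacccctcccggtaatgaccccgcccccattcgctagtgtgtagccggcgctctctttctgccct
Flt1: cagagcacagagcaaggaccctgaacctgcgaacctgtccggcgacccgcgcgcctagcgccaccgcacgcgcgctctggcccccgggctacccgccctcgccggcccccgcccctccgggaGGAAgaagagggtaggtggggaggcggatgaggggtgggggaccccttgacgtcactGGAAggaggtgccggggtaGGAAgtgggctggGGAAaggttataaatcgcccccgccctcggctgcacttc
Tek: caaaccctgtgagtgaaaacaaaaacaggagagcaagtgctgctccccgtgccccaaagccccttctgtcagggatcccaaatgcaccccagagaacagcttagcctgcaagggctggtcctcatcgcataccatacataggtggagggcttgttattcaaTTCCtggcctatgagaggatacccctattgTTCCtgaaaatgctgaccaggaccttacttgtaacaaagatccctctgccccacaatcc
Tie1: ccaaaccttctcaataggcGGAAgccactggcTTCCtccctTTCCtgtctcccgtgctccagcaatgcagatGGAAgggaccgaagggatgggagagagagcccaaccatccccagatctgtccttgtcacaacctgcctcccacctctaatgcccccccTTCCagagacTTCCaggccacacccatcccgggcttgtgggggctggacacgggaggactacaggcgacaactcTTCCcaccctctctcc
The windows were chr5:75978456-75978705 (minus strand) for Kdr, chr5:147726012-147726261 (minus) for Flt1, chr4:94739039-94739288 (plus) for Tek and chr4:118489850-118490099 (minus) for Tie1. The ETS letters were found at 4 places in Kdr, 4 in Flt1, 2 in Tek and 7 in Tie1, and also at 6 in the Vegfa window, where they are not marked, against a median of 3 over all promoters, of which 93.4% held at least 1. Neither set of letters separated the ligand from the receptors. A match is a description of letters and not of binding.

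Vegfa was detected in all populations other than the endothelial cells of NT, and its level was highest in monocytes in all 4 libraries. Monocyte Vegfa was 1137 CPM in NT (interval 1072 to 1205; 1129 UMIs), 549.5 CPM in RT1 (1987 UMIs), 426 CPM in RT2 (2556 UMIs) and 429 CPM in RT3 (1307 UMIs). All 3 RT libraries lay well below NT and close to each other, with log2 ratios of -1.05, -1.42 and -1.41 (mean -1.29 ± 0.21, SD, n = 3). Vegfa was thus called lower in monocytes, where 4.82% of the 6976 genes compared were called in either direction and the median over all genes was 0.12. It was the only call among the 4 of the 10 genes compared there (Vegfa, Vegfb, Flt1 and Nrp1), and with a limit of 10% mitochondrial UMIs the RT1 ratio was -0.98 and the call was lost.

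**Figure D1:**
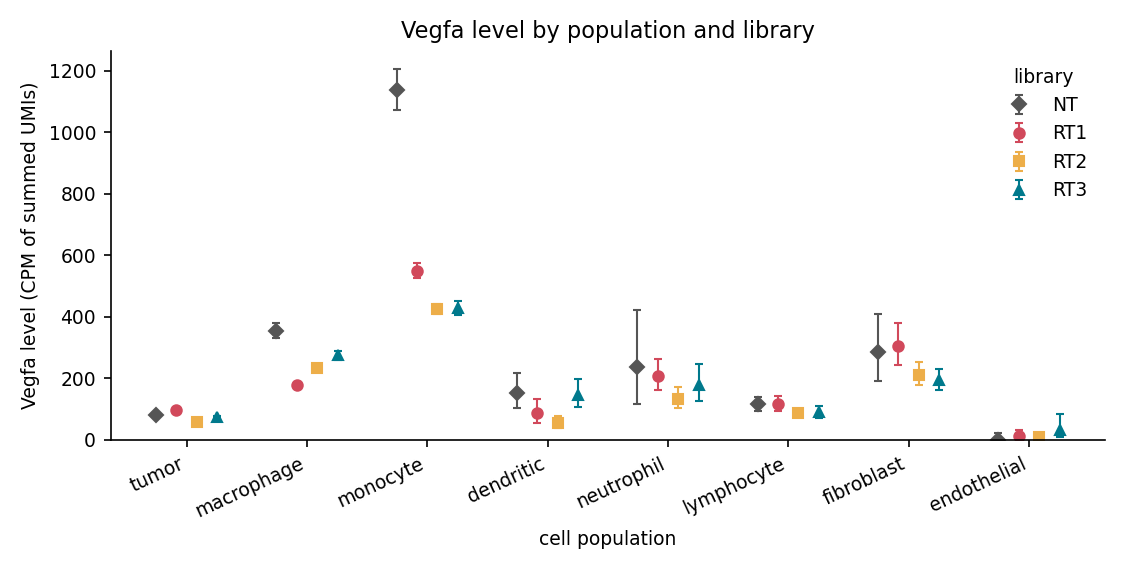
Vegfa level (CPM of summed UMIs, linear axis) in 8 populations; each point is 1 library and bars are exact 95% Poisson intervals. Monocytes of NT stand at 1137 CPM, above the 3 RT libraries at 426 to 549.5 CPM, and endothelial cells lie near 0 in every library.

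The share of monocytes with a Vegfa UMI differed in the same direction. With every cell thinned to 1000 UMIs it was 49.1% in NT (389 cells deep enough), 31.8% in RT1, 26.5% in RT2 and 26.6% in RT3, and without thinning 57.3%, 39.2%, 39.9% and 33.6%. Endothelial cells, the population with the lowest level, gave 0 of 23 and 0 of 66 thinned cells in NT and RT1 (exact upper bounds 14.8% and 5.44%), 1.00% in RT2 and 6.45% in RT3. A background chosen for its low level widens the contrast with monocytes. Thinned shares in NT, RT1, RT2 and RT3 were 7.25%, 9.17%, 5.37% and 6.93% in tumor cells. In lymphocytes they were 7.28%, 9.91%, 4.69% and 9.17%. The monocyte shares lay above all of these. The endothelial level of Vegfa was 0 UMIs in NT, with an exact upper bound of 21.6 CPM, and 14.0, 9.85 and 32.5 CPM from 5, 7 and 4 UMIs in the 3 RT libraries. Median depths were 1315, 1540, 2359 and 1281 UMIs in monocytes and 2904, 2146, 2769 and 2327 UMIs in endothelial cells.

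Macrophages had less Vegfa than monocytes in all 4 libraries, without overlap of the ranges, at 355 CPM in NT, 178 CPM in RT1, 233 CPM in RT2 and 275 CPM in RT3. All 3 RT libraries were below NT (log2 ratio -0.66 ± 0.32, n = 3), and none of the 4 members compared in macrophages was called, where 5.41% of 9260 genes were. The macrophages also differed in makeup, their macrophage markers summing to 10163 CPM in NT against 16183, 17665 and 14671 CPM in RT (10 of 10 detected, C1qb most abundant). Their cycling markers summed to 559 CPM in NT against 173, 129 and 174 CPM in RT (6 of 6, Cdk1 most abundant), and the part of either in the Vegfa level was not tested. Over the 4 libraries the mean monocyte level was 2.44 times the macrophage level; 4 paired libraries cannot give a two-sided exact permutation p below 0.125, so no test is given. Fibroblasts came next at 286 CPM in NT against 307, 212 and 194 CPM in RT, overlapping macrophages, and 21 of the 29 Vegfa UMIs of the NT fibroblasts came from 1 of 18 cells. The RT fibroblasts were mixed as well. Clustered again with endothelial cells, 1 sub-cluster was led by Cfd, Car3 and Adipoq, with no fibroblast marker among its 10 leading genes. It held 33, 6 and 26 Vegfa UMIs in RT1, RT2 and RT3, from 12, 3 and 10 cells. Neutrophils ranged from 134 to 236 CPM, dendritic cells from 55.7 to 152 CPM and lymphocytes from 86.6 to 116 CPM. Neighbors in this order from macrophages down to tumor cells overlapped between libraries.

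Tumor cells had 79.4 CPM of Vegfa in NT, 96.3 CPM in RT1, 59.1 CPM in RT2 and 74.8 CPM in RT3. RT1 lay above NT and the other two below it (log2 ratio -0.08 ± 0.35, n = 3), so no common direction was seen; none of the 8 members compared in tumor cells was called, where 4.04% of 13218 genes were. Of the 10 clusters of tumor cells, clusters 3, 7 and 17 had more fibroblast than tumor markers among their leading genes, and without them the mean ratio was -0.02. Within clusters, Vegfa was above NT in all RT libraries in 1 and below it in 2, while RT1 was above NT in 8, RT3 in 4 and RT2 in 1. The cluster numbered 11 had the highest Vegfa level in NT (192 CPM), RT2 (120.3 CPM) and RT3 (143 CPM), and cluster 3 in RT1 (168 CPM). The difference between RT1 and RT2 therefore recurred in most kinds of tumor cell.

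The mean Vegfa level of tumor cells was the lowest of the non-endothelial populations, yet they held the largest part of the Vegfa UMIs in all 4 libraries. They held 67.7% in NT (interval 66.7 to 68.8), 57.8% in RT1, 41.9% in RT2 and 62.9% in RT3, all RT libraries being below NT (difference -13.5 ± 10.9 percentage points, n = 3, and -7.38 without RT2). Their share of all UMIs was 91.8%, 77.5%, 74.2% and 85.9%. Macrophages held 12.5% of the Vegfa UMIs in NT and 16.0%, 27.7% and 14.7% in RT, all above NT. Monocytes held 15.2% in NT against 19.8%, 22.5% and 15.1% in RT, with RT3 level with NT. Macrophages and monocytes were thus a larger part of the cells after radiation while each held a lower level of Vegfa.

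**Figure D2:**
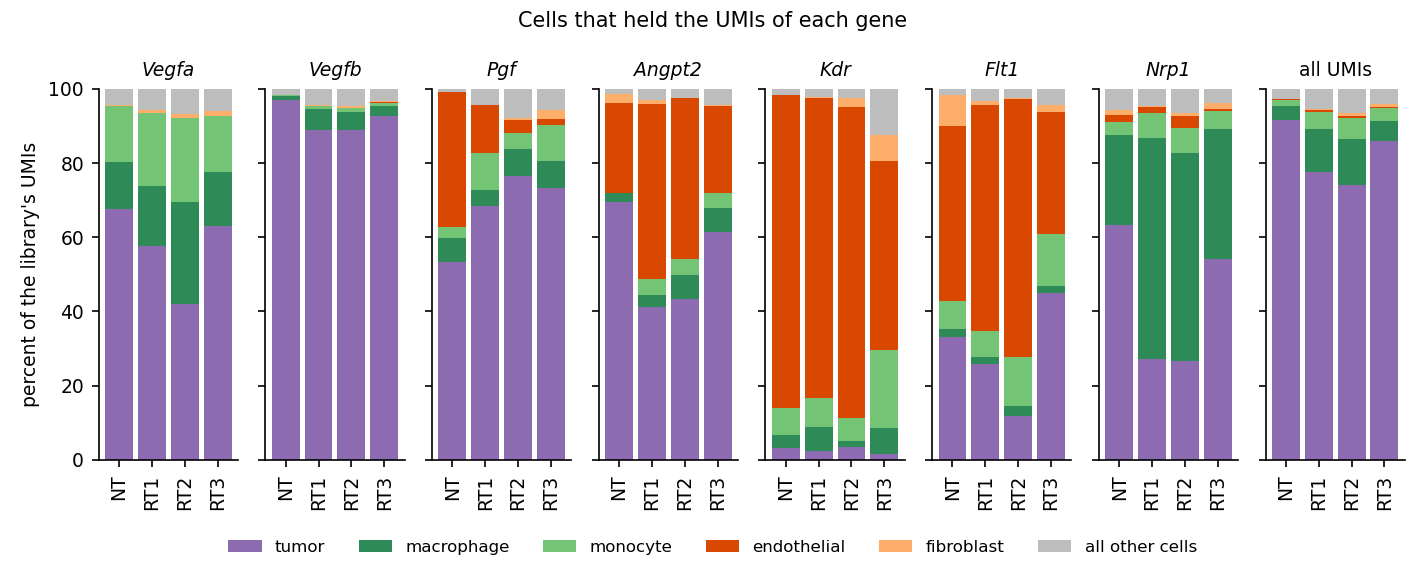
Percent of a gene's UMIs (stacked bars, 0 to 100) held by each population in each library. Tumor cells hold 67.7% of Vegfa UMIs in NT and 41.9 to 62.9% in RT, while endothelial cells hold 84.3% of Kdr UMIs in NT and 50.8 to 84.0% in RT.

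Summed over all cells, Vegfa was 107.5 CPM in NT against 129, 105 and 102 CPM in RT (mean 112 ± 15.02, n = 3), with NT inside the RT range. Had each RT library kept the NT level of every population with its own mix of cells, the mean would have been 163 ± 21.5 CPM. With the NT mix of cells and its own levels it would have been 89.2 ± 17.3 CPM. The mix and the levels thus moved the total in opposite directions in this arithmetic.

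Within macrophages and monocytes together, 11 sub-clusters were compared. Vegfa was below NT in all 3 RT libraries in 9 of them, and lay on both sides of NT in sub-clusters 4 and 9, the first a shallow one led by Ccl8 and Selenop and the second carrying tumor markers. The mean log2 ratios ranged from -1.70 to -0.12. In sub-cluster 1, led by the monocyte genes Chil3, Ly6c2 and Plac8, Vegfa was 1023 CPM in NT against 471, 464 and 369 CPM in RT. In sub-cluster 6, led by Slfn4 and Ifit3, which are induced by interferon, it was 1238 CPM in NT against 391, 289 and 486 CPM in RT. In both, every RT library was below 50% of NT.

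The highest Vegfa level of any sub-cluster in the RT libraries was in number 7, led by Mmp12, Ppbp, Cxcl3 and Cd36, genes of an elastase, chemokines and a lipid receptor. It was 1282 CPM in NT against 1091, 1033 and 846 CPM in RT, a mean log2 ratio of -0.38 ± 0.19 (n = 3). It held 41, 161, 125 and 197 monocytes, or 7.09% of those of NT and 7.98%, 5.65% and 9.92% of those of RT. Its level of the hypoxia-response list described below was 8001, 7535, 7482 and 10970 CPM in NT, RT1, RT2 and RT3. This was the highest of the 11 sub-clusters in every library. In sub-cluster 0, led by Ccl8, Cbr2 and Lyve1 of resident-type macrophages, Vegfa was 379.5 CPM in NT against 127, 221 and 239.6 CPM in RT. Monocyte markers summed to 2718 CPM in the monocytes of NT and to 4321, 4962 and 7174 CPM in those of RT (8 of 8 detected, Ly6c2 most abundant), so the monocytes also differed in makeup. The part of this in the lower Vegfa was not tested.

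**Figure D3:**
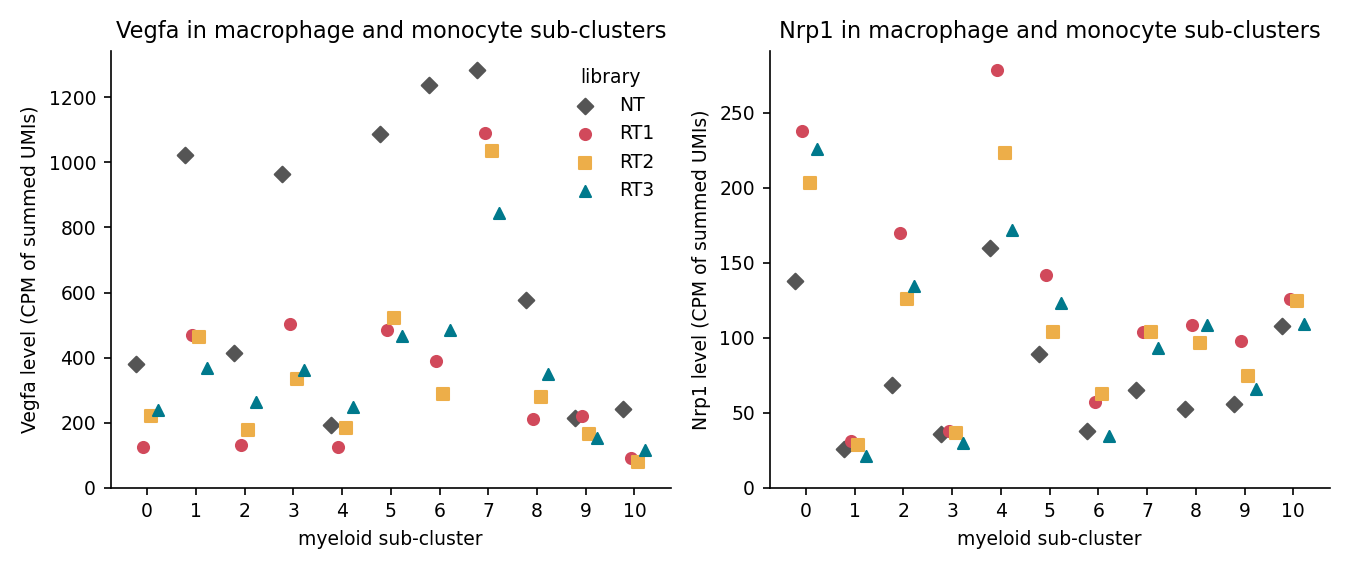
Vegfa and Nrp1 levels (CPM of summed UMIs, linear axes) in 11 sub-clusters of macrophages and monocytes, 1 point per library. Vegfa in the RT libraries lies below NT in 9 sub-clusters, least so in sub-cluster 7 (1282 CPM in NT, 846 to 1091 CPM in RT), and Nrp1 lies above NT in 8 of the 9 sub-clusters compared.

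Vegfa also varied with a list of hypoxia-response genes, among them Pgk1, Ldha, Ndrg1 and Hilpda, within each library. Cells of at least 1000 UMIs were divided into quartiles of the list's level in their own library and population. Among tumor cells, Vegfa in the highest quartile was 2.59, 3.34, 1.79 and 1.96 times that in the lowest in NT, RT1, RT2 and RT3. Among macrophages the ratios were 2.16, 9.22, 5.35 and 4.65, the lowest of them in NT. Among monocytes they were 1.37 in NT and 3.05, 4.53 and 2.95 in RT, so that NT was again the lowest.

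In monocytes and in macrophages, the low-hypoxia cells of NT stood out from those of RT. Macrophage Vegfa in the lowest quartile was 319 CPM in NT and 53.4, 102 and 126 CPM in RT. In the highest quartile of macrophages it was 688 CPM in NT and 493, 543 and 586 CPM in RT. In the lowest quartile of monocytes Vegfa was 1120 CPM in NT (214 UMIs) and 322, 186 and 241 CPM in RT. In their highest quartile it was 1534 CPM in NT (307 UMIs) and 982, 842 and 709.9 CPM in RT. Median depths in those monocyte quartiles were 1781 and 1602 UMIs in NT and between 1566 and 2467 UMIs in RT. Vegfa did not rise steadily along the list in NT. From the lowest to the highest quartile it was 1120, 952, 830 and 1534 CPM in monocytes (97 or 98 cells each). In NT macrophages it was 319, 160, 299 and 688 CPM (149 or 150 cells each). The list itself summed to 3877 CPM in the monocytes of NT and to 4569.6, 3518 and 5229 CPM in those of RT, on both sides of NT. In tumor cells it summed to 4389.7 CPM in NT against 3879.5, 2667 and 3616 CPM in RT, the lowest being RT2, which also had the lowest tumor Vegfa. RT1 went the other way, with a list sum below NT and the highest tumor Vegfa. Other members did not share the pattern in tumor cells, where the ratio of highest to lowest quartile was 1.04 to 1.18 for Vegfb, 0.55 to 0.76 for Angpt2 and 0.83 to 1.11 for Nrp1. In macrophages Angpt2 did vary with the list, at 2.52, 3.595, 2.66 and 2.00 in NT, RT1, RT2 and RT3, though all macrophages of a library held only 11 to 54 Angpt2 UMIs.

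**Figure D4:**
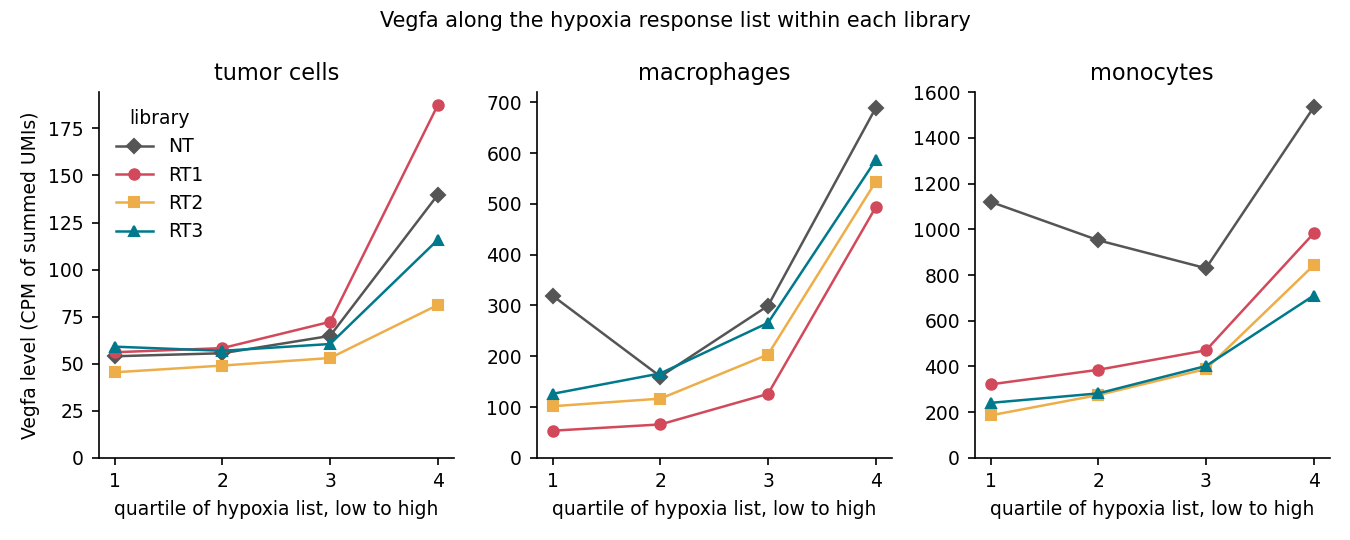
Vegfa level (CPM of summed UMIs, linear axis) in quartiles of the hypoxia list, low to high, for tumor cells, macrophages and monocytes; each line is 1 library. Monocytes of NT lie at 1120 CPM in the lowest and 1534 CPM in the highest quartile, above those of RT at 186 to 322 CPM and 709.9 to 982 CPM.

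Vegfb, a ligand of FLT1 linked to fatty acid uptake, had its highest mean level in tumor cells, at 139 CPM in NT against 121, 120.5 and 117 CPM in RT. Every RT library was lower, and they differed little from each other (log2 ratio -0.22 ± 0.03, n = 3), well short of the size limit. In macrophages it was 39.7 CPM in NT against 49.3, 39.3 and 53.5 CPM in RT, on both sides of NT. Vegfc, the lymphatic growth factor, was low in tumor cells, at 4.19 CPM in NT against 5.13, 4.29 and 3.64 CPM in RT. In endothelial cells it rested on 3, 16, 58 and 1 UMIs (17.6, 44.7, 81.6 and 8.12 CPM), too few to compare.

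Pgf, the placental growth factor, had its highest level in the endothelial cells of NT. It was 293 CPM in NT (50 UMIs; interval 218 to 386), 33.5 CPM in RT1 (12 UMIs), 15.5 CPM in RT2 (11 UMIs) and 16.2 CPM in RT3 (2 UMIs; interval 1.97 to 58.7). All RT libraries were far below NT (log2 ratio -3.85 ± 0.63, n = 3), and Pgf was the only member past the size rule of the 6 compared in endothelial cells, where 4.73% of 2051 genes were called. It met the minimum of UMIs for the comparison only through NT, so this ratio had to be large and is given as a description. A single NT cell held 31 of the 50 UMIs. Without it NT was at 124 CPM, a level at which the minimum would not have been met, and the mean log2 ratio was -2.61, with -1.89, -3.001 and -2.93 in RT. Tumor cells held 53.3% of Pgf UMIs in NT and 68.5 to 76.5% in RT at levels of 1.15, 1.05, 2.94 and 1.25 CPM, and endothelial cells 36.5%, 13.04%, 3.55% and 1.61%.

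Angpt2 was highest in endothelial cells, with a mean 22.5 times that of fibroblasts, the next population, and no overlap. Endothelial Angpt2 was 633 CPM in NT (interval 519 to 764), 928 CPM in RT1, 512 CPM in RT2 and 1137 CPM in RT3. RT1 and RT3 lay above NT and RT2 below it, so the RT libraries differed more from each other than their mean did from NT (log2 ratio 0.36 ± 0.60, n = 3). In tumor cells it was low and even, at 4.89 CPM in NT against 4.81, 4.51 and 5.01 CPM in RT. Tumor cells still held 69.6% of Angpt2 UMIs in NT and 41.2%, 43.4% and 61.3% in RT, against 24.2%, 47.2%, 43.4% and 23.5% in endothelial cells.

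Monocytes gave no Angpt2 UMI in NT, with an exact upper bound of 3.72 CPM, and 31, 35 and 25 UMIs in RT (8.57, 5.83 and 8.20 CPM). The RT levels were all above that limit, yet of the same order as in tumor cells. Endothelial markers summed to 13.1 CPM in the monocytes of NT and to 27.9, 27.3 and 26.2 CPM in those of RT, with Cldn5 at 0; their part in the result was not tested. In NT fibroblasts Angpt2 was 108 CPM (11 UMIs) against 29.5, 1.62 and 3.05 CPM in RT. Those 18 cells also carried more endothelial markers (453 CPM, against 148, 102 and 153 CPM, 9 of 11 detected, Ecscr most abundant, Cldn5 and Vwf at 0). They carried more pericyte markers too (5133 CPM, against 1211, 167 and 549 CPM, 8 of 8, led by Rgs5). When fibroblasts and endothelial cells were clustered again together, the 11 UMIs lay in a sub-cluster led by Rgs5, Acta2 and Notch3. By these genes its cells were pericyte-like rather than fibroblast-like. It held 10 cells in NT and 9, 4 and 2 in RT, and in RT1 and RT2 it took in endothelial cells as well. The part of the endothelial markers in the result was not tested.

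Kdr, the main signaling receptor for VEGF-A, had a mean level in endothelial cells 28.8 times that in dendritic cells, the next population, with no overlap. It was 598 CPM in NT (interval 487 to 726), 637 CPM in RT1, 692 CPM in RT2 and 528 CPM in RT3. RT1 and RT2 were above NT and RT3 below it, all within the NT counting interval (log2 ratio 0.04 ± 0.20, n = 3). No Kdr UMI was found in neutrophils or in lymphocytes, where the exact upper bound in NT was 3.91 CPM. Dendritic cells had 5.08, 15.8, 19.1 and 45.4 CPM, from 1, 4, 13 and 13 UMIs, and monocytes had 9.06, 6.08, 6.16 and 8.85 CPM. Endothelial cells held 84.3%, 80.9%, 84.0% and 50.8% of Kdr UMIs in NT, RT1, RT2 and RT3, RT3 being the library with the lowest share of endothelial cells.

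Kdr was detected in 72.7%, 66.7%, 64.1% and 54.3% of endothelial cells, or 34.8%, 50%, 34% and 25.8% after thinning to 1000 UMIs, in NT, RT1, RT2 and RT3. In monocytes, as a background, the thinned shares were 0.771%, 0.527%, 0.517% and 0.893%. With 23 to 100 endothelial cells deep enough in a library, a difference between the thinned shares was not detectable at this depth, the NT interval running from 16.4 to 57.3%.

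Flt1, the high-affinity VEGF receptor, was 633 CPM in the endothelial cells of NT (interval 519 to 764) and 769, 826 and 690.3 CPM in RT. The 3 RT libraries were above NT, RT3 inside its interval and RT1 and RT2 above it (log2 ratio 0.26 ± 0.13, n = 3). Monocytes had 17.1 CPM in NT against 8.85, 18.8 and 11.8 CPM in RT, and tumor cells 1.196 CPM in NT against 1.93, 1.24 and 1.59 CPM in RT. NT fibroblasts had 187 CPM against 18.5, 3.24 and 7.63 CPM in RT, in the 18 cells with raised endothelial and pericyte markers named above. Of their 19 Flt1 UMIs, 18 lay in the 10 NT cells of the pericyte-like sub-cluster, so this level is not one of fibroblasts. Endothelial cells held 47.2%, 61.0%, 69.5% and 32.9% of Flt1 UMIs, and tumor cells 33.2%, 25.7%, 11.8% and 44.96%, in NT, RT1, RT2 and RT3.

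**Figure D5:**
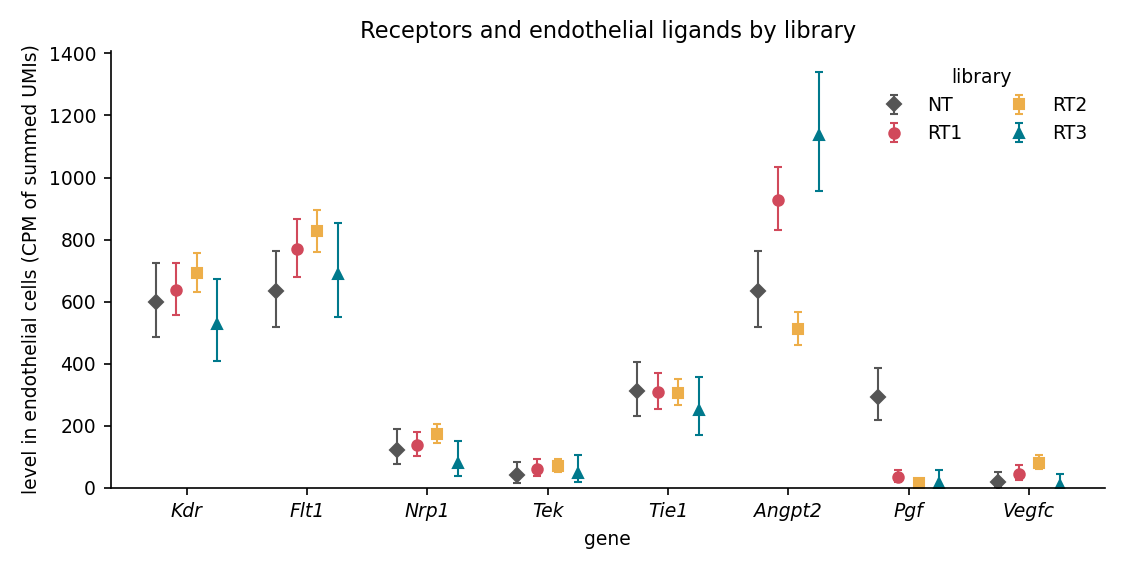
Levels of the receptors and of endothelial ligands in endothelial cells (CPM of summed UMIs, linear axis), 1 point per library with exact 95% Poisson intervals. The intervals of Kdr, Flt1 and Tie1 overlap between NT and RT, Angpt2 spreads from 512 to 1137 CPM in RT around 633 CPM in NT, and Pgf stands at 293 CPM in NT and 15.5 to 33.5 CPM in RT.

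Nrp1, the co-receptor that binds both VEGF and class 3 semaphorins, was the receptor with the widest expression. In macrophages it was 103 CPM in NT (interval 90.7 to 116; 269 UMIs), 201 CPM in RT1, 166 CPM in RT2 and 169.7 CPM in RT3. All RT libraries were above NT (log2 ratio 0.80 ± 0.15, n = 3), but each fell short of the size limit, RT1 at 0.97. The change in the makeup of the macrophages given above stood beside this as well, and its part was not tested. The share of macrophages with an Nrp1 UMI was 8.51% in NT against 17.3%, 14.1% and 14.0% in RT after thinning, and 22.1%, 38.4%, 44.1% and 33.3% before it. In tumor cells, as a background, the thinned shares were 1.29%, 1.49%, 1.48% and 1.64%. Nrp1 was above NT in all RT libraries in 8 of the 9 sub-clusters compared and on both sides in sub-cluster 3. In the Lyve1 sub-cluster 0 it was 138 CPM in NT against 238, 203 and 226 CPM in RT, the opposite direction to Vegfa in the same cells.

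Nrp1 in tumor cells was 11.1 CPM in NT against 13.8, 13.1 and 16.6 CPM in RT, all above NT (log2 ratio 0.39 ± 0.18, n = 3), as were 32.0% of all genes compared there. Macrophage markers in tumor cells summed to 9.08 CPM in NT and 43.3, 54.0 and 25.1 CPM in RT (10 of 10, C1qb most abundant). Fibroblast markers, given below, were also higher in RT, and the part of either was not tested. Without the tumor clusters led by fibroblast markers, Nrp1 had a mean log2 ratio of 0.50. In lymphocytes it was 44.6 CPM in NT against 33.1, 38.7 and 27.8 CPM in RT, all below (log2 ratio -0.44 ± 0.24, n = 3), but the mean ratio was 0.23 with cells thinned to 1000 UMIs. Of all 7259 genes compared in lymphocytes 39.0% were below NT in every RT library and 2.80% were called, with none of the 3 members compared among them. In endothelial cells it was 123 CPM in NT against 137, 173 and 81.2 CPM in RT, on both sides of NT. Over all cells Nrp1 was 16.0 CPM in NT against 39.3, 36.7 and 26.4 CPM in RT (mean 34.1 ± 6.84, n = 3). Macrophages held 24.3% of Nrp1 UMIs in NT and 59.5%, 56.3% and 35.0% in RT, and tumor cells 63.4% in NT against 27.3%, 26.5% and 54.2% in RT. With the NT levels and the RT mix of cells the mean would have been 23.4 ± 3.96 CPM, and with the NT mix and the RT levels 22.0 ± 1.36 CPM, so both moved the total upward.

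Tek, the Tie2 receptor for the angiopoietins, had few UMIs, held mostly by endothelial cells (87.5%, 84.6%, 70.4% and 30% in NT, RT1, RT2 and RT3) and in RT3 by fibroblasts (65%). It was 41.0 CPM in the endothelial cells of NT and 61.5, 70.4 and 48.7 CPM in RT, from 7, 22, 50 and 6 UMIs. All RT values were above NT, inside its interval of 16.5 to 84.5 CPM, and the counts were too low for the comparison. With cells thinned to 1000 UMIs the mean log2 ratio of endothelial Tek was -0.69, against 0.54 without thinning. Fibroblasts had 0 UMIs in NT, where 18 cells were seen, and 7.39, 24.3 and 19.8 CPM in RT. Tie1 was 311 CPM in the endothelial cells of NT (interval 233 to 406) and 307, 307 and 252 CPM in RT, RT1 and RT2 being level with NT (log2 ratio -0.11 ± 0.17, n = 3). Tumor cells had 1.26 CPM of Tie1 in NT and 1.61, 1.82 and 1.33 CPM in RT, yet held 59.7%, 45.1%, 38.5% and 72.9% of Tie1 UMIs in NT, RT1, RT2 and RT3, against 39.6%, 51.2%, 57.1% and 23.3% in endothelial cells.

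The endothelial cells were mixed, and clustering them again with the fibroblasts gave 2 sub-clusters led by endothelial genes, 1 with Ctla2a, Gpihbp1, Igfbp3, Aqp1 and Plvap and the other with Chga, Igfbp3, Apln, Aqp1 and Ctla2a. They held 218 of the 312 endothelial cells, 23, 71, 97 and 27 in NT, RT1, RT2 and RT3. In these cells Kdr was 705 CPM in NT against 735, 860.5 and 689 CPM in RT, again on both sides. Flt1 was 680.3 CPM in NT against 950.3, 1034 and 899 CPM in RT, all above (mean log2 ratio 0.50). Tie1 was 332 CPM in NT against 356, 403 and 350.3 CPM in RT, now all above NT (0.15), whereas in all endothelial cells it was level or below. Angpt2 was 705 CPM in NT against 1072, 654 and 1529.8 CPM in RT, and Pgf was 158 CPM in NT against 35.2, 23.6 and 23.4 CPM in RT. A further sub-cluster with 61 of the 312 cells was led by S100a4, Stmn1, Rhox5, Cdk1 and Birc5, which include cell cycle genes and a tumor marker.

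The ratio of ligand to receptor in the whole library ran in the reverse order of the share of endothelial cells. There were 61.6, 35.6, 19.4 and 67.8 Vegfa UMIs for each Kdr UMI, and 32.5, 22.3, 13.5 and 33.7 for each Flt1 UMI, in NT, RT1, RT2 and RT3. RT3 lay close to NT, and RT1 and RT2 below both. These are ratios of counts, not of molecules per length. Endothelial cells held 50.8 to 84.3% of Kdr UMIs, at 528 to 692 CPM, so the order largely repeats their share of the cells.

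Other genes of the pathway were taken from 5 lists. In endothelial cells none of the 6 other ligands, 11 other receptors, 13 VEGF-induced and tip cell genes, 10 genes of the FOXO1 and Tie2 axis or 8 hypoxia genes compared was called. Of all 2051 genes compared in endothelial cells, 4.73% were called. Ptprb, the phosphatase that opposes Tie2 signaling, came close, at 188 CPM in NT against 369, 445 and 439 CPM in RT (log2 ratio 1.15 ± 0.15, n = 3), with RT2 and RT3 alike. Klf4, a flow-induced factor, was 387 CPM in NT against 766, 1075 and 893 CPM in RT (log2 ratio 1.22 ± 0.25), and Klf2 was 2467 CPM in NT against 2960.3, 4429 and 2249 CPM in RT. Of the 13 VEGF-induced and tip cell genes, 7 were below NT in all RT libraries and 3 above it (median log2 ratio -0.49), against 33.2% and 27.2% of all genes compared in endothelial cells. Of the 11 other receptors, 6 were above NT in all RT libraries and 1 below it (median log2 ratio 0.52). Igfbp3 was 3991 CPM in NT against 3620.1, 1984 and 1965 CPM in RT, and Col4a1, of the vessel basement membrane, 3458 CPM in NT against 3119.7, 2214 and 2111 CPM. Col4a2, its partner chain, went the other way, from 2163 CPM in NT to 4148, 2783 and 2339 CPM in RT (log2 ratio 0.47 ± 0.42, n = 3). Fibroblast markers in endothelial cells summed to 199 CPM in NT and 886, 343 and 674 CPM in RT (9 of 9, Col3a1 most abundant). Pericyte markers of these cells, with sums given below, were lower in RT2 and RT3 than in NT and RT1. The part of either in the levels of these genes was not tested.

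The other abundant pathway genes of endothelial cells did not pass the size rule either. Mcam, an adhesion molecule of vessel cells, was 1313 CPM in NT against 1317, 743 and 828 CPM in RT, and Notch4 was 129 CPM in NT against 299, 262 and 129.9 CPM, both with 1 library level with NT. Mcam is also a gene of pericytes, whose markers summed to 785, 763, 372 and 276 CPM in the endothelial cells of NT, RT1, RT2 and RT3 (8 of 8 detected, Rgs5 most abundant), and their part in the Mcam level was not tested. The endothelial transcription factors Sox17 and Ets1 had RT values above and below that of NT (log2 ratio 0.21 ± 0.89 and -0.14 ± 0.19, n = 3), and so did Ramp2 (0.27 ± 0.36) and the hypoxia gene Hilpda (0.64 ± 1.12). Of the other hypoxia genes, Pgk1 and Ldha were below NT in all RT libraries (-0.66 ± 0.60 and -0.31 ± 0.20) and Ndrg1 above it (1.16 ± 0.56).

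Among the other ligands of endothelial cells, Apln, the tip cell ligand apelin, was 1899 CPM in NT against 1278, 322 and 479 CPM in RT, all below NT but to very different degrees (log2 ratio -1.71 ± 1.02, n = 3). Adm, adrenomedullin, was 522 CPM in NT against 319, 149 and 162 CPM in RT, and Pdgfb, which recruits pericytes, 504 CPM in NT against 363, 328 and 374 CPM. Thbs1, an inhibitor of angiogenesis, was 486 CPM in NT against 721, 571 and 1673 CPM in RT. S1pr1, the sphingosine 1-phosphate receptor, was 580.2 CPM in NT against 735, 715 and 577 CPM in RT, with RT3 level with NT.

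Outside the endothelium, a few pathway genes passed the size rule. They were 2 of the 58 compared in tumor cells (4.04% of all genes), 3 of 47 in macrophages (5.41%), 3 of 38 in monocytes (4.82%) and 3 of 37 in lymphocytes (2.80%). In monocytes Pdgfb fell, from 77.6 CPM in NT to 13.8, 15.2 and 7.21 CPM in RT. Cxcr4, the receptor of Cxcl12, also fell there, from 1313 CPM in NT to 330.5, 520.03 and 386 CPM in RT. The monocyte markers of these cells differed as given above. Neutrophil markers in them summed to 238 CPM in NT and 597, 581 and 544 CPM in RT (9 of 9, Trem1 most abundant). The part of either in these changes was not tested. In tumor cells Ramp2, the adrenomedullin co-receptor, rose from 12.8 CPM in NT to 74.2, 150.3 and 42.1 CPM in RT, and Notch4 from 1.42 to 4.15, 4.40 and 4.20 CPM. Ramp2 was a leading gene of cluster 7 of the tumor cells, with Lum and Dcn, which held 440 cells in NT and 949, 1111 and 767 in RT. Fibroblast markers in tumor cells summed to 1288 CPM in NT and 2467, 2068 and 2172 CPM in RT (9 of 9 detected, Col3a1 most abundant), and their part in the rise was not tested.

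In macrophages the Nrp1 ligand Sema3a rose from 5.34 to 13.4, 12.2 and 20.5 CPM, and Col4a2 from 3.81 to 14.3, 10.9 and 19.2 CPM, beside fibroblast markers of 62.5 CPM in NT and 156, 137 and 187 CPM in RT (9 of 9, Col3a1 most abundant) and tumor markers of 122 CPM in NT and 179, 170.04 and 256 CPM in RT (7 of 8, Rhox5 most abundant, Prl2c3 at 0), whose part was not tested. In lymphocytes, named here after its values were seen, Ndrg1 was at 49.9 CPM in NT against 134, 116 and 124 CPM in RT. Macrophage markers there summed to 90.2 CPM in NT and 618, 444 and 210 CPM in RT (10 of 10 detected, C1qb most abundant). Neutrophil markers there summed to 38.2 CPM in NT and 209, 118 and 182 CPM in RT (9 of 9, Il1r2 most abundant). Tumor and dendritic markers were lower in every RT library, and the part of any of these was not tested. Ramp2 in macrophages and lymphocytes (2 UMIs each in NT) and Col4a2 in monocytes and lymphocytes (6 and 12 UMIs in NT) also passed the rule upward, but met the minimum of UMIs only through RT, Col4a2 in lymphocytes by a narrow margin, so these are given as descriptions. In fibroblasts, 8.92% of 1604 genes were called higher and 4.11% lower, and the only member compared (Vegfa) was not called. Of the 25 pathway genes compared there, 3 were higher and 4 lower. Klf4 was higher, and Mcam and Col4a1 were lower. The other 4, Sema3c and Ndrg1 (higher; 1 and 9 UMIs in NT) and Igfbp3 and Pdgfa (lower), met the minimum only through the group where they were high. The pericyte and endothelial markers of the 18 NT cells given above differed beside these, and their part was not tested. Mcam was also a leading gene of the pericyte-like sub-cluster given above, which held 10 cells in NT and 9, 4 and 2 in RT.

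Over 31 points, each a population in a library with at least 20 cells, the genes most like Vegfa in log2(CPM + 10) were Zeb2 (Pearson r = 0.88), Mmp19 (0.83), B4galt5 (0.83), Ptgs2 (0.81) and Irf2bp2 (0.81). Of these 5, all had their highest level in monocytes, of NT for Zeb2, Ptgs2 and Irf2bp2. The genes most like Kdr were Tmem88 (0.97), Dll4 (0.96), Cdh5 (0.96), F11r (0.96) and Nos3 (0.95), and those most like Angpt2 were Esam, Meox2, Tspan7, Adgrf5 and Stc1 (all 0.98). All 10 peaked in endothelial cells. Points of 1 library share its depth and points of 1 population share its cells, so these values describe the likeness of patterns only.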

How the data were processed

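Libraries were made from dissociated tumors using SeekOne MM reagents for 3′ counting of single cells, after removal of erythrocytes, debris and dead cells, and sequenced on a NovaSeq instrument. The deposited values were UMI counts per gene and barcode, whole numbers without normalization, made by the authors with SeekOne Tools; per the labels, the submitters' processing notes also list Cell Ranger, STAR 2.5.1b, featureCounts, Subread 1.6.4 and the build GRCm39 (mm39), with no role stated. The authors called cells before deposit.

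The 18605 genes common to the 4 tables were used, and the others held at most 0.00185% of a library's UMIs. Barcodes needed 200 detected genes and no more than 20% of UMIs from mitochondrial genes. Counts were scaled to 10000 per cell and logged; the 2000 most variable genes, without 86 genes that include the members and pathway lists, gave 30 principal components, integrated with a rewritten Harmony algorithm (theta 2, lambda 1, sigma 0.1, seed 1) and clustered with leidenalg 0.10.2 at resolution 0.8 over 20 neighbors (Python 3.11.15, numpy 2.4.6, scipy 1.17.1, scikit-learn 1.9.0). Clusters took the class with the highest marker level; the naming rule was set after the clusters were seen, and rebuilt names may differ from those of the study. No doublets were removed in the main values.

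Raw UMIs were summed per library and population. Genes were compared where the mean CPM would give at least 10 UMIs in the smallest library. With 1 NT library no test was run; each library's value, the RT mean ± SD, exact intervals and a size rule (log2 ratio of at least 1 in every RT library) were given. The size rule was also tried on simulated data, and the outcome is not given or relied on here. The members and gene lists were chosen with earlier results of these data known. The text names the members, listed pathway genes past the size rule in endothelial cells, tumor cells, macrophages, monocytes or fibroblasts or highest in endothelial cells, and the 5 genes most alike to Vegfa, Kdr and Angpt2. Alternatives were size factors, no minimum of UMIs, a mitochondrial limit of 10%, resolution 1.2, no integration, leaving out the 8% highest doublet scores, cells thinned to 1000 UMIs, cells without markers of another type, endothelial cells with at least 2 markers and leaving out each RT library. Choices added after seeing the data were tumor cells without clusters led by fibroblast markers, the endothelial sub-clusters, the sub-clusters of macrophages and monocytes, and Pgf without its highest cell. Promoters came from RefSeq (GRCm38.p6), a build other than that of the counts. PCR, staining and other assays of the study were not analysed here.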

Additional observations from a re-analysis of the deposited data

Results flagged for a closer look

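Nrp1 moved one way in every RT library in some populations and the other way in another. Its mean log2 ratio of RT over NT was 0.39 in tumor cells and 0.80 in macrophages, higher in 3 of 3 RT libraries in both, and -0.44 in lymphocytes, lower in 3 of 3. Among all genes, 32.0% in tumor cells and 33.6% in macrophages were higher, and 39.0% in lymphocytes lower, in 3 of 3, so such a pattern was common. The difference between populations was not tested, since all ratios rest on the same NT library, and the lymphocyte value was 0.23 when cells were thinned to 1000 UMIs. Tie1 was 0.32 in tumor cells, higher in 3 of 3 RT libraries, and -0.11 in endothelial cells, lower in 3 of 3; this difference was not tested either and turned around when cells were thinned to 1000 UMIs, with -0.44 in tumor cells and 0.48 in endothelial cells. Tumor Tie1 was below 2 CPM in every library, and 2 of the 3 endothelial ratios were -0.01 and -0.02.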

How the results depend on the processing

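Over 29 ratios and shares and 313 alternative values, 288 lay within 1 SD of the RT libraries of the value reported, 25 moved further, 31 had the other sign, and no called gene changed sign. The call of Vegfa in monocytes was lost with a mitochondrial limit of 10% and kept in the 6 other alternatives run on all 3 RT libraries that bear on monocytes, with -1.50 at resolution 1.2, where 1496 cells were named monocytes (6793 reported) and a cluster of 4315 cells stayed unnamed; without 1 RT library its mean lay between -1.41 and -1.23. Endothelial ratios moved with the cells used. With cells thinned to 1000 UMIs Kdr was 0.27, Flt1 0.62 and Tie1 0.48. Tek, with counts too low for the comparison, was -0.69 in those cells and 0.54 without thinning. Without cells holding markers of another type Kdr was 0.42, Flt1 0.57 and Tie1 0.075. In the endothelial sub-clusters Flt1 was 0.50 and Tie1 0.15. Tumor Vegfa turned to 0.10 without RT replicate 2. The cause of these shifts was not tested.

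Counts of called genes depended on the filter: without a minimum of UMIs they were 878 in tumor cells (534 reported), 951 in macrophages (501), 898 in monocytes (336) and 716 in endothelial cells (97), where more genes were tested. Thinned cells gave 264, 309 and 17 calls in tumor cells, macrophages and endothelial cells, and resolution 1.2 gave 184 in monocytes. Without 1 RT library, which loosens the rule, the counts were 636 to 844 in tumor cells, 381 to 518 in monocytes and 130 to 149 in endothelial cells, highest without RT replicate 3 in each. Endothelial Pgf, compared only because of its count in NT, had mean log2 ratios from -3.94 to -2.25 in the alternatives run on all 3 RT libraries, which do not remove that dependence. Vegfa in fibroblasts ranged from -1.10 in thinned cells to 2.55 with the mitochondrial limit of 10%. With 33 endothelial cells in NT, differences under about the width of its intervals were not detectable. No paired analysis was possible because NT is 1 library.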
